A study of Mus musculus with 9 samples.

Results

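The genes described here encode the AP-1 and BATF transcription factors of mouse T cells: Fos, Fosb, Fosl1 and Fosl2, Jun, Junb and Jund, Batf, Batf3 and Atf3. They were picked by symbol, and all 10 were found among the 23415 rows of the deposited expression table. The values come from CD4+ T cells taken from inflamed colons in a mouse model of colitis. Donor mice either lacked CD160, a lymphocyte receptor of the immunoglobulin family, or were wildtype littermates (Control). Their naive CD4+ CD25- CD45RBhigh T cells were injected into Rag1-/- hosts, which have no T or B cells of their own, in both groups. When disease peaked, 5000 CD4+ T cells per library were sorted from the colonic lamina propria after enzymatic digestion at 37°C, giving 4 CD160 Knockout and 5 Control libraries. The labels do not say whether each library is a separate recipient, so the p-values below measure the spread between libraries, which may be technical. They also do not state which part of Cd160 was deleted.

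AP-1 is a dimer of basic leucine zipper (bZIP) proteins. FOS proteins pair only with a partner such as a JUN protein, while JUN proteins can also pair with each other. In T cells these dimers are induced after antigen receptor signalling through MAP kinases and bind DNA next to NFAT at cytokine genes. BATF and BATF3 lack a transactivation domain of their own, pair with JUN proteins and bind composite sites together with IRF4 or IRF8. BATF is needed for Th17 cells and BATF3 for cross-presenting dendritic cells. FOS, JUN and ATF3 are also known to be induced by tissue digestion and other stress.

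Starts of 4 genes are shown because these are the most abundant FOS genes and the most abundant JUN genes of the table. Each window holds 250 bases before and 50 bases after the gene's start in RefSeq (GRCm38.p6), written 5′ to 3′ on the strand of the gene. Capitals mark matches, on either strand, to TGACG, which begins the cyclic AMP response element TGACGTCA, or to TGACATCA, the related site known from the Jun promoter. These letters were chosen with the windows in view.
Fos, chr12:85473640-85473939, plus strand: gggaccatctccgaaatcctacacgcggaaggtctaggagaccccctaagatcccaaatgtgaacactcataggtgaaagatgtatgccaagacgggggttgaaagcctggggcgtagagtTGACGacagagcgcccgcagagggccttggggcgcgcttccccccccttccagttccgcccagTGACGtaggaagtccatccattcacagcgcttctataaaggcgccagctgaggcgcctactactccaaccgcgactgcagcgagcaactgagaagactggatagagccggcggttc
Fosb, chr7:19309996-19310295, minus strand: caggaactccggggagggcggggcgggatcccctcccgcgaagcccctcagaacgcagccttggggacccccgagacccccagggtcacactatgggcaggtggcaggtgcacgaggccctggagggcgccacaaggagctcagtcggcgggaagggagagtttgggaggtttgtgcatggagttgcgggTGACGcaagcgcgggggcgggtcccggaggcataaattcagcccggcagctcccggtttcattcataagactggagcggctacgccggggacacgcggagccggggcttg
Jun, chr4:95052173-95052472, minus strand: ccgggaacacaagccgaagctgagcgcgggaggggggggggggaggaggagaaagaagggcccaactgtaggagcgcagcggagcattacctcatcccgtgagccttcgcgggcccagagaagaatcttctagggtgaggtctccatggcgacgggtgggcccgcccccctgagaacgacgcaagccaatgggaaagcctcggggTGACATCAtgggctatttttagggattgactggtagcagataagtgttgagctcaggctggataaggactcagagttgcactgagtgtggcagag
Junb, chr8:84978699-84978998, minus strand: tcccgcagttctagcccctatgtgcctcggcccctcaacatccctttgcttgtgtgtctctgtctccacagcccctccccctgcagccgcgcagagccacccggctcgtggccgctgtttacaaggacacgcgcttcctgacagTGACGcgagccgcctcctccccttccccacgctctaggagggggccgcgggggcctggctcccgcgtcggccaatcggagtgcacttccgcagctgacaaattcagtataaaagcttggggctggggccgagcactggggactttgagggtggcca
RefSeq windows were matched for 9 of the 10 genes, all but Fosl1. Not every RefSeq start is the start in the GENCODE annotation. The Jund window lies at 70697489 to 70697788 and the annotated gene begins at 70698949. The Atf3 window (minus strand) lies at 191183284 to 191183583 and the annotated gene begins at 191218039. Absence of a match covers these windows only. TGACG was found in the windows of Fos, Fosb, Junb, Batf and Atf3, and in 20.8% of all 32851 windows of this length. Counted from the start, Fos held it at positions -129 and -66, Fosb at -60 and Junb at -106. TGACATCA was found at position -45 of Jun and in 3.62% of all windows. Neither the AP-1 site TGANTCA (7.81% of all windows) nor the full TGACGTCA (1.79%), which contains TGACG on both strands, was found in any window of these genes. A match is a run of letters and not evidence of binding.

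Values are TPM, transcript abundances divided by transcript length and scaled to an equal total per library. Levels of different genes can thus be compared as far as length goes. TPM does not by itself correct for base composition or for overlapping genes. The read depth behind the values is unknown. The targeted gene, Cd160, was at 5.44 to 18.8 TPM in the 4 knockout and at 31.8 to 212 TPM in the 5 control libraries. Control replicate 1 stood apart, with 7308 genes at 1 TPM or more against 11088 to 11711 in the other 8 libraries. Results are therefore given with and without it. T cell markers were present in every library, with Cd3d, Cd3e, Cd3g, Cd4, Trac, Cd2 and Lck summing to 1865 TPM in control replicate 1 and to 4145 to 5888 TPM elsewhere. Macrophage markers were also present: 11 genes including Lyz2, C1qa and Csf1r summed to 8515 to 15249 TPM in knockout libraries, to 2355 to 9428 TPM in control replicates 2 to 5 and to 1004 TPM in control replicate 1. In limma without control replicate 1, all 11 had positive knockout minus control differences, with a median log2 difference of 1.36. In the same fit 0 of the 7 T cell markers had a positive difference, with a median of -0.22. The B cell gene Ms4a1 was listed at 0 in every library, and Cd79a and Jchain were under 1 TPM throughout, while Cd79b of the same list was at 2.29 to 12.7 TPM in knockouts and at 1.51 to 8.06 TPM in control replicates 2 to 5. In sorted cells, a change in the share of cells and a change of RNA per cell cannot be told apart.

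The 10 genes spanned a wide range of levels, in nearly the same order in 8 of the 9 libraries. Junb was the most abundant at 2116 ± 343 TPM (SD, n = 8, without control replicate 1), followed by Fos at 703 ± 115, Jun at 382 ± 63.7 and Batf at 199 ± 44.1 TPM. Fosb (56.2 ± 19.1 TPM), Atf3 (32.9 ± 12.7) and Batf3 (24.6 ± 8.65) formed a middle tier. Jund at 9.07 ± 1.85 and Fosl2 at 4.19 ± 0.75 TPM were low, and Fosl1 was at or near 0. The ranges of Junb and Fos, of Fos and Jun, of Batf and Fosb, of Batf3 and Jund and of Jund and Fosl2 did not overlap over these 8 libraries. Neighbours whose ranges overlapped were Jun and Batf (Jun above Batf in 7 of 8 libraries), Fosb and Atf3 (6 of 8) and Atf3 and Batf3 (5 of 8). In control replicate 1 the order was different, with Batf first at 113 TPM and Junb second at 80.7 TPM.

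**Figure D1:**
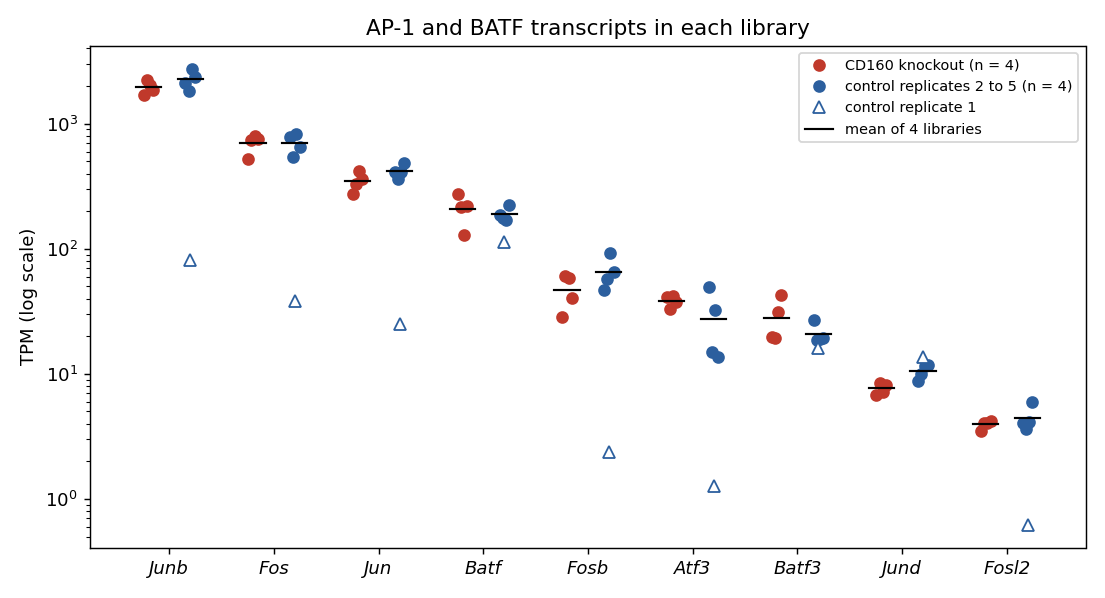
TPM (log axis) of the 9 genes that reached 1 TPM in at least 4 libraries; filled circles are single libraries, triangles control replicate 1 and lines the mean of 4 libraries. Junb is highest, at 1693 to 2754 TPM in the 8 circles, and only Jund has every knockout circle below every control symbol.

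As shares of the summed TPM of the 10 genes, Junb, Fos and Jun made up most of the total. The 10 genes together amounted to 2866 to 4325 TPM in the 8 libraries other than control replicate 1 and to 290.3 TPM in that library. Junb took 55.8% to 63.7%, Fos 17.0% to 22.7% and Jun 9.12% to 12.5% in the 8 libraries. The summed JUN genes stood at 2.79 to 3.54 times the summed FOS genes in knockout libraries and at 3.08 to 3.94 times in control replicates 2 to 5, ranges that overlap. In control replicate 1 Junb took 27.8% and Batf 38.8%, whereas Batf took 3.62% to 9.59% in the other libraries.

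**Figure D2:**
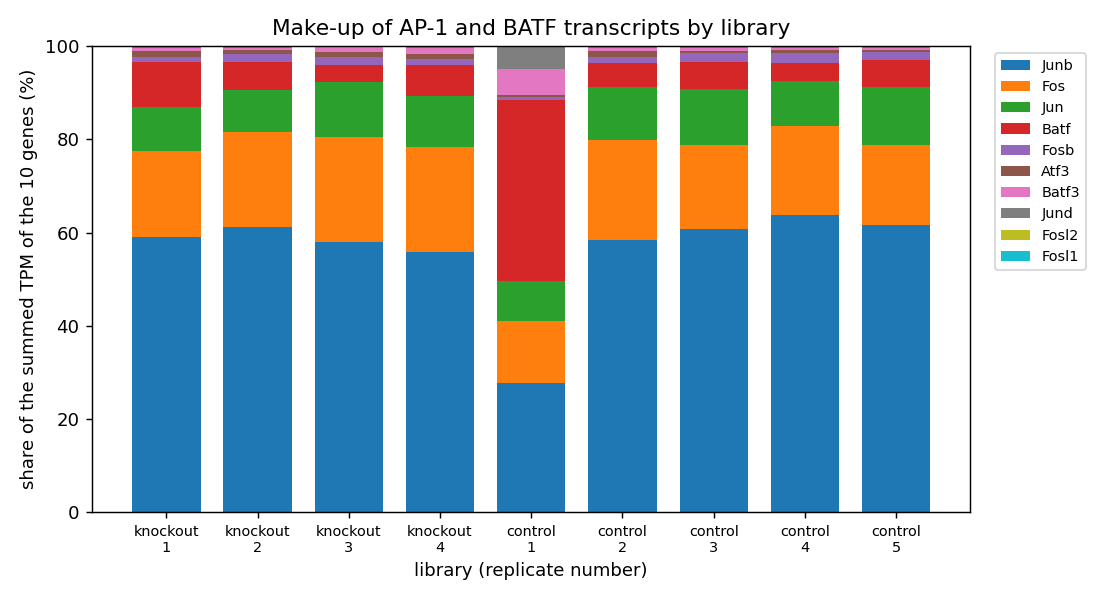
Share (%) of each gene in the summed TPM of the 10 genes, 1 bar per library with its replicate number. The bars of 8 libraries are alike, with Junb at 55.8% to 63.7%, and control replicate 1 differs, with Batf at 38.8%.

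The genes of this family did not differ between CD160 knockout and control cells beyond the threshold adjusted over all genes. Differences were tested with limma on log2(TPM + 1) over the 11495 genes that reached 1 TPM in 4 or more libraries, and are given as knockout minus control. All 9 libraries gave 0 of 9 tested members at an adjusted p of 0.05 (0.0174% of all tested genes) and 0 of 9 at an unadjusted p under 0.05 (6.39% of all). Without control replicate 1 these were 0 of 9 (0.0262% of 11457 genes) and 1 of 9 (12.8%), the latter being Jund with lower knockout values (4.41% of all genes in this direction). With all libraries 8 members had a positive and 1 a negative difference, with a median of 0.42 where the median of all genes was 0.46 and 13.3% of all genes had negative differences. Leaving out control replicate 1 gave 3 positive and 6 negative differences and a median of -0.12, where that of all genes was -0.014 and 52.5% of all genes had negative differences. Groups did not overlap for 1 of 9 members, Jund, with or without that library, against 4.93% and 7.02% of all tested genes.

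**Figure D3:**
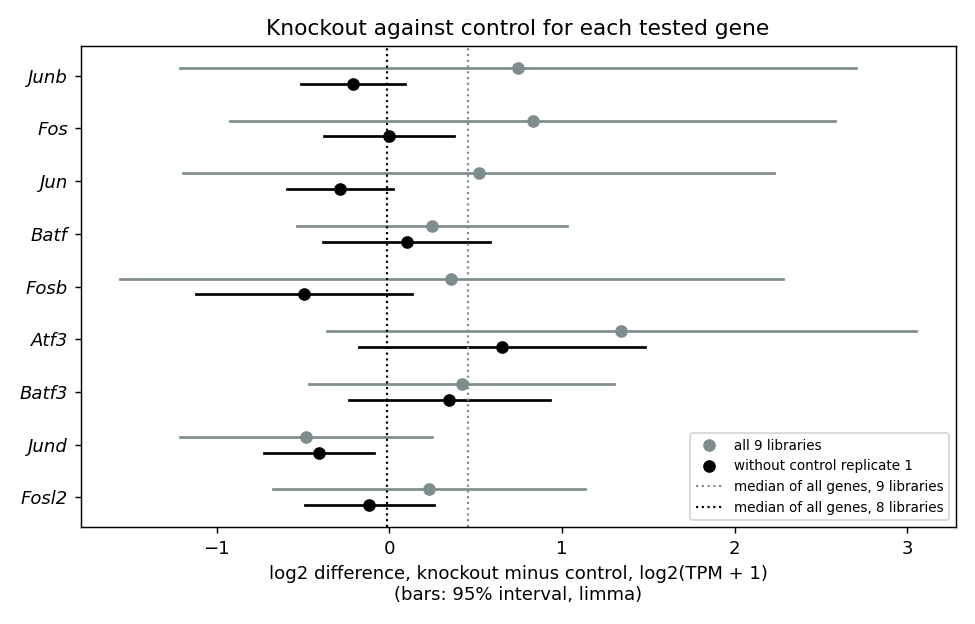
Knockout minus control difference of mean log2(TPM + 1) with its 95% interval in limma, from all 9 libraries (grey) and without control replicate 1 (black); dotted lines are the medians of all tested genes, 0.46 and -0.014. Intervals narrow without that library, and only that of Jund, in the 8 libraries, does not reach 0.

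Among the FOS genes, Fos was at the same mean level in both groups once control replicate 1 was set aside. Fos (chromosome 12, 85473890 to 85477273, GRCm38) encodes the prototype FOS protein, an immediate early factor. Knockout replicates 1 to 4 held 525.6, 738, 797 and 749.6 TPM of it, and control replicates 1 to 5 held 38.2, 779.6, 545, 830.5 and 657 TPM. Knockout replicate 1 and control replicate 3 were the lowest of the 8 libraries, and the groups overlapped. Knockouts averaged 703 ± 121 TPM (SD, n = 4), and the 4 controls other than replicate 1 averaged 703 ± 128 TPM (SD). In limma the log2 difference without control replicate 1 was -8.66e-05 (95% interval -0.38 to 0.38, adjusted p = 1.00). With all libraries it was 0.83 (-0.92 to 2.58, adjusted p = 0.745), its sign resting on that library.

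Fosb (chromosome 7, 19302696 to 19310051), a FOS protein induced with Fos, varied more. It stood at 28.3, 61.0, 58.1 and 40.2 TPM in the knockouts and at 2.36, 47.0, 57.0, 92.4 and 65.6 TPM in the controls. Control replicate 4 was the highest and knockout replicate 1 the lowest of the 8 libraries, with overlapping groups. Its log2 difference in limma was 0.36 with all libraries (adjusted p = 0.812) and -0.49 (95% interval -1.12 to 0.13, adjusted p = 0.517) without control replicate 1. Fosl2 (chromosome 5, 32135801 to 32157842), which encodes the FOS-related antigen FRA2, was at 3.5 to 4.23 TPM in knockouts and at 3.59 to 5.93 TPM in control replicates 2 to 5, with 0.62 TPM in control replicate 1. Its log2 difference in limma was 0.23 with all libraries and -0.12 (-0.49 to 0.26, adjusted p = 0.842) without that library. Fosl1 (chromosome 19, 5447547 to 5455946), which encodes FRA1, was under 1 TPM in every library and was left out of the limma fit by the filter on low values. Its values were 0.11, 0.08, 0.04 and 0.05 TPM in knockouts and 0.05 TPM in control replicate 3, and it was listed at 0 in the other controls. The exact permutation test gave p = 0.0317 with 9 and p = 0.0857 with 8 libraries, at levels too low to give a fold. The annotation places Ccdc85b on the opposite strand at Fosl1, and the library kit does not keep strand.

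Jund, of the JUN genes, was the member with lower values in every knockout library. Jund (chromosome 8, 70698949 to 70700616) encodes a JUN protein that is present in resting cells and is known to restrain proliferation. Knockout replicates 1 to 4 held 6.78, 8.52, 7.20 and 8.08 TPM of it, against 13.7, 8.80, 9.98, 11.5 and 11.7 TPM for control replicates 1 to 5. The highest knockout and the lowest control library lay close together, at 8.52 and 8.80 TPM. Such separation with lower knockout values was found for 1.05% of all tested genes with all libraries and for 3.01% without control replicate 1. Knockouts averaged 7.65 ± 0.796 TPM (SD, n = 4) and controls 11.1 ± 1.86 TPM (SD, n = 5), the latter 10.5 ± 1.37 TPM (SD, n = 4) without control replicate 1. By exact permutation of the libraries (two-sided), p was 0.0159 with 9 and p = 0.0286 with 8 libraries, in each case the smallest the splits allow. In limma the log2 difference was -0.48 (95% interval -1.21 to 0.25, adjusted p = 0.745), and without control replicate 1 it was -0.41 (-0.73 to -0.088, unadjusted p = 0.0182, adjusted p = 0.278). Jund was negative under all 18 other settings tried, between -0.95 and -0.31, and passed the adjusted threshold in none of them (adjusted p of 0.25 to 0.977 in limma). The annotated antisense gene Gm11175 overlaps Jund, so that their reads cannot be told apart without strand. The T cell marker sum was 4145 to 5194 TPM in knockouts and 4965 to 5888 TPM in control replicates 2 to 5. Without control replicate 1, 0 of the 7 T cell markers had a positive log2 difference, with a median of -0.22. With the macrophage marker level as a covariate the log2 difference of Jund was -0.35 (unadjusted p = 0.135, adjusted p = 0.541 in limma). Macrophage markers were themselves higher on average in knockouts, so that fit cannot tell macrophage share and knockout apart. The part of other cells in the Jund difference was not tested beyond that fit.

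Junb and Jun had overlapping groups. Junb (chromosome 8, 84974484 to 84978718), the JUN partner of BATF known from Th17 cells, was at 1693, 2233, 2049 and 1845 TPM in knockouts and at 80.7, 2138, 1838, 2754 and 2379 TPM in controls. Control replicate 4 was the highest and, outside control replicate 1, knockout replicate 1 the lowest. Its log2 difference in limma was 0.75 with all libraries and -0.21 (95% interval -0.51 to 0.090, adjusted p = 0.568) without control replicate 1. Prdx2, at up to 223 TPM, overlaps Junb on the other strand, and their reads in the overlap cannot be told apart. Jun (chromosome 4, 95049034 to 95052222), the prototype JUN protein, was at 273, 332, 416 and 362 TPM in knockouts and at 24.9, 414, 364, 412 and 484 TPM in controls. Knockout replicates 1, 2 and 4 were the lowest of the 8 libraries, while knockout replicate 3 lay among the controls. Its log2 difference in limma was 0.52 with all libraries (adjusted p = 0.748) and -0.28 (-0.59 to 0.023, unadjusted p = 0.0661, adjusted p = 0.428) without control replicate 1. The antisense gene Junos overlaps Jun in the annotation.

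Batf, of the BATF genes, overlapped between groups throughout. Batf (chromosome 12, 85686669 to 85709087) was at 275, 215, 128 and 219 TPM in knockouts and at 113, 187, 178, 169 and 223 TPM in controls. Both the highest and, outside control replicate 1, the lowest value were in knockouts, replicates 1 and 3. Knockouts averaged 209 ± 60.8 TPM (SD, n = 4), and controls other than replicate 1 averaged 189 ± 23.9 TPM (SD, n = 4). The log2 difference in limma was 0.25 with all libraries and 0.10 (95% interval -0.38 to 0.58, adjusted p = 0.909) without that library, while median-of-ratios scaling of all libraries gave -0.25. With the macrophage marker covariate and without that library it was 0.48 (adjusted p = 0.519 in limma). Irf4, the partner of BATF in T cells, was named after its values were seen and was at 9.53 to 13.7 TPM in knockouts and at 9.37 to 14.8 TPM in control replicates 2 to 5.

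Batf3 and Atf3 had positive differences that did not pass the test. Batf3 (chromosome 1, 191097847 to 191108945) was at 19.5, 19.3, 31.3 and 42.6 TPM in knockouts and at 16.0, 27.0, 18.8, 18.9 and 19.4 TPM in controls. Knockout replicates 3 and 4 and control replicate 2 were highest, and the other 6 libraries lay between 16.0 and 19.5 TPM. Its log2 difference in limma was 0.42 with all libraries and 0.35 (95% interval -0.24 to 0.93, adjusted p = 0.637) without control replicate 1. Atf3 (chromosome 1, 191170296 to 191218039), a stress-induced factor that dampens inflammatory genes in macrophages, was at 40.8, 33.0, 41.8 and 37.8 TPM in knockouts and at 1.26, 49.1, 14.9, 32.2 and 13.7 TPM in controls. The knockouts were close to each other, control replicate 2 was above all of them, and control replicates 3 and 5 were low. Its log2 difference in limma was 1.34 (-0.36 to 3.05, adjusted p = 0.745) with all libraries and 0.65 (-0.18 to 1.48, adjusted p = 0.518) without control replicate 1.

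Averaged as log2(TPM + 1), the 11 macrophage markers stood at 7.09, 7.69, 8.46 and 8.45 in knockout replicates 1 to 4, and control replicates 1 to 5 had 4.11, 7.44, 5.93, 6.95 and 5.79. Macrophage markers were thus lowest in control replicates 1, 3 and 5, which also held the lowest Atf3 values. When limma was given this mean as a covariate, in the 8 libraries, the log2 differences of Atf3 and Batf3 were both -0.24, with adjusted p values of 0.817 and 0.753. That of Fos was then -0.43 (unadjusted p = 0.0197, adjusted p = 0.380 in limma), and that of Jun was -0.46 (unadjusted p = 0.0392, adjusted p = 0.442). Because the marker mean was itself higher on average in knockouts, macrophage share and knockout cannot be told apart in this fit. Among 8 dendritic cell markers, Flt3 reached at most 1.62 TPM and Clec9a at most 2.2 TPM. Xcr1, known from the dendritic cells that need BATF3, was at 4.28 to 5.37 TPM in knockouts and at 3.68 to 8.66 TPM in controls. Itgax reached 59.1 TPM in knockouts and 39.6 TPM in control replicates 2 to 5, with overlapping ranges. In limma without control replicate 1, 5 of 6 tested dendritic cell markers had positive differences, with a median log2 difference of 0.62. Summed dendritic cell markers, nearly all of it the class II genes H2-Aa and H2-Ab1 that macrophages share, were at 10935 to 18072 TPM in knockouts and at 1218 to 13089 TPM in controls.

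**Figure D4:**
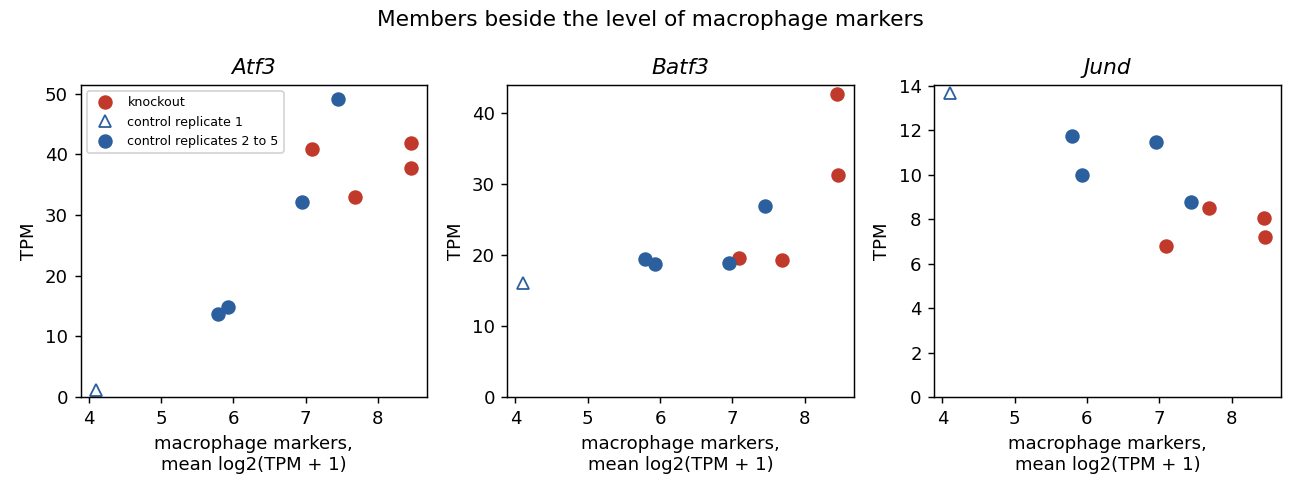
TPM of Atf3, Batf3 and Jund (vertical, linear axes from 0) against the mean log2(TPM + 1) of 11 macrophage markers (horizontal), 1 point per library. Atf3 is at 13.7 and 14.9 TPM in the 2 filled control points with the lowest marker means, 5.79 and 5.93, and Jund has its 4 knockout points at 6.78 to 8.52 TPM.

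Relations among the 9 tested members and with the macrophage marker mean were computed over the 8 libraries without control replicate 1, 45 in all, with exact permutation tests. None passed after Benjamini-Hochberg adjustment over the 45, with the lowest adjusted p at 0.192. The closest pair was Fosb and Junb, with Pearson's r = 0.88 (permutation p = 0.0043, adjusted p = 0.192) and Spearman's rho = 0.88 (permutation p = 0.00724, adjusted p = 0.326). Without the 2 libraries farthest from the median of Fosb, r was 0.62. Atf3 and the macrophage marker mean had r = 0.83 (permutation p = 0.0168, adjusted p = 0.307) and rho = 0.74 (permutation p = 0.0458, adjusted p = 0.347), and r was 0.17 without the 2 farthest libraries, so the relation rests on those libraries. Batf3 and the marker mean had r = 0.77 (permutation p = 0.0289, adjusted p = 0.307) and rho = 0.71 (permutation p = 0.0576, adjusted p = 0.347), and r was 0.85 without the 2 farthest. Jund and the marker mean had r = -0.69 (permutation p = 0.0605, adjusted p = 0.307) and rho = -0.74 (permutation p = 0.0458, adjusted p = 0.347), and r was -0.44 without the 2 farthest. The 8 libraries mix both groups, and with 4 libraries each no value within a group is given.

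**Figure D5:**
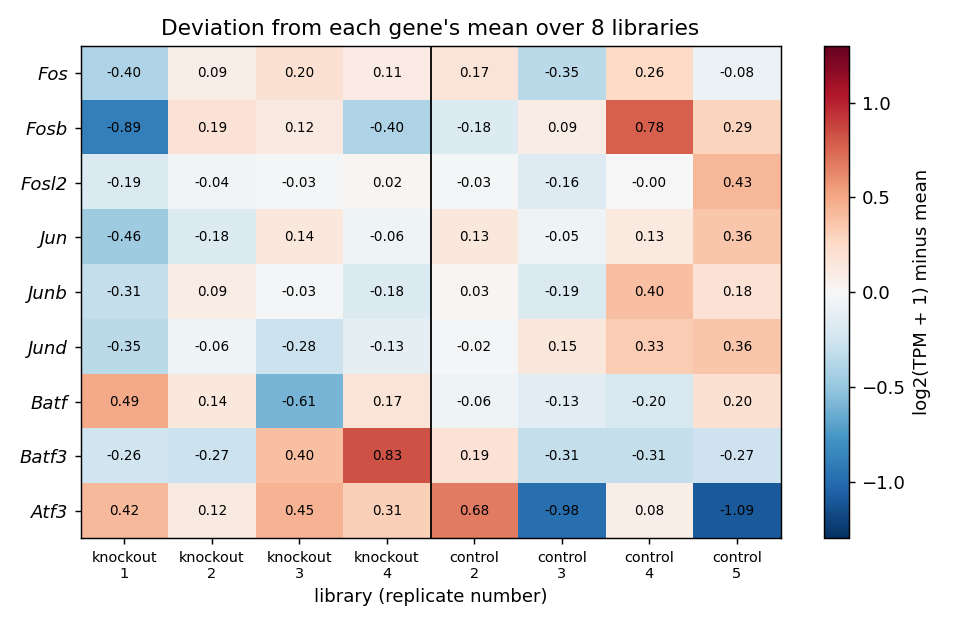
Deviation of log2(TPM + 1) from each gene's mean over 8 libraries (colour and printed value), 1 column per library, 4 knockouts left of the line and control replicates 2 to 5 right of it. Knockout replicate 1 is low for the FOS and JUN genes, from -0.89 for Fosb to -0.19 for Fosl2, and high for Batf at 0.49.

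Single libraries stood out across several members. Knockout replicate 1 had the lowest value of the 8 libraries for Fos, Fosb, Fosl2, Jun, Junb and Jund and the highest for Batf. Dusp1, a phosphatase that switches off MAP kinases, and Hspa1a, an inducible heat shock protein, were looked at after their values were seen. So were the early genes Klf6 and Egr1. Dusp1 was lowest of the 8 libraries in control replicate 3 and knockout replicate 1, at 812 and 885 TPM, against 1096 to 1524 TPM in the others. Hspa1a was at 38.3 TPM in knockout replicate 1 and 85.7 TPM in control replicate 3, against 180.5 to 806 TPM in the others. Fos was likewise lowest in these 2 libraries. Egr1 was too, at 78.1 TPM in knockout replicate 1 and 77.5 TPM in control replicate 3. Klf6 was lowest in knockout replicates 1 and 4, at 148 and 210 TPM. Ier3, another early gene, was instead highest of the 8 libraries in knockout replicate 1, at 94.5 TPM. Dusp1, Hspa1a, Klf6 and Egr1 were picked by their values, and a shared pattern was not tested.

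Likeness to Fos and to Batf was measured as the root mean square difference between centred log2(TPM + 1) values over the 8 libraries. Closest to Fos were Ccdc163, Tmem126b, Extl2, Ppp1r35 and Abcb6, at 0.091 to 0.10, where the spread of Fos itself was 0.24. Junb was the nearest member, at 0.19 and rank 244 among the 10835 genes compared. Closest to Batf were Nudcd2, SLMO2, Gtf2f2, Pdk3 and Gas2, at 0.12 to 0.13, where the spread of Batf was 0.31. The nearest member to Batf was Fosl2, at 0.35 and rank 3217.

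Members were not equally low in control replicate 1. Relative to the median of control replicates 2 to 5, it held 3.57% of Junb, 3.85% of Fosb, 5.32% of Fos, 5.36% of Atf3, 6.02% of Jun and 15.2% of Fosl2. Batf and Batf3 stood at 61.7% and 83.8%, and Jund at 128%. Over all tested genes with a value the median was 11.6%, and 7.60% of genes were at or above the other controls' median. Batf3, Batf and Jund have the shortest transcripts of the tested members, 801, 955 and 1668 bases in the longest coding model of the annotation, against 1809 bases for Junb to 6537 bases for Fosl2. Jun, Junb and Jund have 1 exon each, and Jund has the highest GC content of the 10, at 67.1%. The part of length and composition in these values was not tested.

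The wider pathway was described by 4 lists, none of which had a gene past the adjusted threshold in limma in either fit. Of 22 bZIP relatives and IRF partners, 19 were tested: 17 had positive and 2 negative differences with all libraries (median 0.57), and 11 and 8 without control replicate 1 (median 0.062). At an unadjusted p under 0.05, 2 had higher values with all libraries (Batf2 and Irf8, where 5.78% of all genes did) and 3 without control replicate 1 (these and Nfe2l2, where 8.44% did). Batf2, an interferon-induced relative of BATF also made by macrophages, was at 4.88 to 15.8 TPM in knockouts and at 1.00 to 6.21 TPM in controls (log2 difference 1.37, adjusted p = 0.621 in limma). Irf8, a factor of macrophages, dendritic cells and activated T cells, was at 64.4 to 102 TPM in knockouts and at 3.87 to 49.8 TPM in controls, with no overlap (3.88% of all genes were separated in this direction, and 4.01% without control replicate 1). Its adjusted p in limma was 0.674, and 0.141 without control replicate 1. Nfe2l2, the NRF2 factor of oxidative stress, was at 68.5 to 95.95 TPM in knockouts and at 5.75 to 70.4 TPM in controls. The macrophage marker mean was 7.92 in knockouts and 6.53 in control replicates 2 to 5, and with it as a covariate, without control replicate 1, the log2 difference went from 1.18 to 0.43 for Irf8, from 0.69 to 0.17 for Nfe2l2 and from 1.13 to 0.87 for Batf2. All 3 then had an unadjusted p above 0.05 in limma (0.0663, 0.296 and 0.148). As the marker mean itself differed between the groups, this fit cannot tell macrophage share and knockout apart.

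All 20 listed MAP kinase and SRF genes were tested; 20 had positive differences with all libraries (median 0.48, where that of all genes was 0.46), and 12 had positive and 8 negative differences without control replicate 1 (median 0.024). The count at an unadjusted p under 0.05 was 0 in both fits, against 6.39% and 12.8% of all genes. Map2k2, the kinase MEK2, was at 53.5 to 83.9 TPM in knockouts and at 16.9 to 72.6 TPM in controls (log2 difference 0.83, adjusted p = 0.745 in limma). Its log2 difference was 0.52 without control replicate 1 and 0.34 with median-of-ratios scaling of all libraries. Map2k3 and Map3k5, kinases upstream of p38 and JNK, had log2 differences of 1.01 and 0.51 in limma with all libraries and no such scaling. These were 0.55 and 0.18 with median-of-ratios scaling of all libraries, and 0.20 and 0.16 without control replicate 1.

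Of 20 other immediate early and digestion response genes, 19 had positive differences and 1 a negative one with all libraries (median 0.51). Without control replicate 1, 11 were positive and 9 negative (median 0.10), and at an unadjusted p under 0.05 the values of Ier3, Zfp36 and Socs3 were higher (3 of 20, against 8.44% of all genes) and those of Hspa1b lower (1 of 20, against 4.41%). Ier3, an early gene of NF-kappa-B signalling, was at 25.3 to 94.5 TPM in knockouts and at 8.68 to 28.9 TPM in controls (log2 difference 1.29, adjusted p = 0.702 in limma). Socs3, the feedback inhibitor of IL-6 family and IL-23 signalling, was at 137 to 209 TPM in knockouts and at 1.55 to 115 TPM in controls, with no overlap (3.88% of all genes were so separated, and 4.01% without control replicate 1). Without that library the log2 difference of Socs3 in limma was 0.91 (adjusted p = 0.154), and 0.42 (adjusted p = 0.528) with the macrophage marker covariate. Hspa1b, a heat shock gene with a near-identical copy in Hspa1a that makes its value uncertain, was at 1.78 to 17.6 TPM in knockouts and at 4.64 to 43.4 TPM in controls.

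Among 10 cytokine genes known as AP-1 targets, 9 were tested. With all libraries 6 had positive and 3 negative differences (median 0.14). Without control replicate 1 all 9 were negative (median -0.21), where 52.5% of all genes were negative and their median was -0.014. The 7 T cell markers had 0 positive differences in the same fit, with a median of -0.22. The part of T cell share in the cytokine differences was not tested. Il4 and Tnf were lower at an unadjusted p under 0.05 in that fit, 2 of 9 against 4.41% of all genes. Il4, the Th2 cytokine, was at 2.94, 4.76, 2.12 and 1.06 TPM in knockouts and at 0.86, 5.68, 4.96, 18.4 and 13.0 TPM in controls. Its groups overlapped only through control replicate 1, and without that library 3.01% of all genes were separated in this direction. Its adjusted p in limma was 0.745, and 0.194 without that library. With the macrophage marker covariate, without that library, its log2 difference went from -1.55 to -1.19 (unadjusted p = 0.107, adjusted p = 0.513 in limma). That fit cannot tell macrophage share and knockout apart. Il21 and Il10, cytokines of follicular helper and regulatory cells among others, had log2 differences of 0.40 and 0.55 in limma with all libraries and of -0.057 and -0.17 without control replicate 1.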

How the data were processed

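RNA of sorted colonic CD4+ T cells was measured in 9 full-length cDNA libraries (modified SMART-Seq2, polyadenylated RNA, paired reads of 38 cycles), per the labels' protocols. The authors deposited TPM values. Per the submitters' processing notes, the tools were RSEM 1.2.31, Trimmomatic 0.32 and Bowtie2 2.2.9, on GRCm38; their settings are not given in the sources used here. TPM keeps no depth, so no counting error is given.

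Groups and replicate numbers follow the titles. The 10 members, the gene lists and the tests were chosen with earlier results of these data known, among them that control replicate 1 stands apart. Limma 3.58.1 in R 4.3.3 (lmFit, eBayes with trend) was fitted to log2(TPM + 1) of all genes that reached 1 TPM in 4 or more libraries, with Benjamini-Hochberg adjustment over all of them; this scale understates the change of low genes. Single genes were also compared by exact permutation over libraries. Named genes were all members, the 3 genes per list with the smallest unadjusted p in the fit of 9 libraries, and the 5 closest in profile to Fos and to Batf, leaving out gene models and T cell receptor segments. Dusp1, Hspa1a, Klf6, Egr1 and Irf4, and Zfp36 and Tnf as the remaining genes of small counts, were added after their values were seen. Alternatives covered pseudocounts, filters, median-of-ratios scaling, the replicate number as a block, a macrophage marker covariate and leaving out each library. The fit was also run on simulated data with 200 changed genes, and the outcome is not given here. Noise was drawn independently for each gene and library, so no simulated library stood apart as control replicate 1 does. Coordinates and transcript lengths are from GENCODE M21, and gene starts from RefSeq (GRCm38.p6). Figures used matplotlib 3.10.9.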

Additional observations from a re-analysis of the deposited data

Results flagged for a closer look

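Jun in control replicate 1, at 24.9 TPM, lay far below the other 4 controls, which were at 364 to 484 TPM: its gap to the nearest control was 0.74 of the whole range of the group. It was the single value so marked among 22 groups of values examined (9 members, their sum and the macrophage marker mean, in knockouts and in controls), where chance marks about 1 in 20. Fos, Fosb, Junb, Fosl2, Atf3, Batf and Batf3 also had their lowest control value in this library, and Jund its highest.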

How the results depend on the processing

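The count of members past the adjusted threshold was 0 under all 18 alternatives, among 8 to 10 members tested. Their median log2 difference of 0.42 ranged from -0.12 to 0.71 when each library was left out, the lowest being without control replicate 1, and was -0.34 with the macrophage marker covariate and without that library. Median-of-ratios scaling of all libraries turned it to -0.061. The median of all genes was 0.46 as reported, 0.11 with median-of-ratios scaling and -0.014 without control replicate 1. Of 9 members and 12 list genes, none was called under any alternative, and signs differed from the reported ones only in 5 settings; the cause was not tested beyond the removal of control replicate 1. Leaving out each library gave Fos -8.66e-05 to 1.10, Fosb -0.49 to 0.71, Fosl2 -0.12 to 0.41, Jun -0.28 to 0.77, Junb -0.21 to 1.06, Il21 -0.057 to 0.62 and Il10 -0.17 to 0.90, the lowest value always without control replicate 1. Median-of-ratios scaling of all libraries gave Fosb -0.061, Fosl2 -0.066, Batf -0.25 and Batf3 -0.070. Combined with leaving out control replicate 1 it gave Fosb -0.47, Fosl2 -0.099, Jun -0.26, Junb -0.19, Il21 -0.037 and Il10 -0.16. The macrophage covariate without that library gave Fos -0.43, Fosb -0.68, Fosl2 -0.081, Jun -0.46, Junb -0.34, Batf3 -0.24, Atf3 -0.24 and Il10 -0.79. In that fit Batf, at 0.48, and Jund, at -0.35, kept their sign, as did Map2k3 at 0.37 and Hspa1b at -3.03.

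Replicate numbers are shared by the groups. After centring within each group, same-numbered libraries had correlations of -0.14 to -0.017 over all genes, and other pairs had -0.19 to 0.19. Without control replicate 1, same-numbered libraries had -0.22 to 0.0010. Same-numbered libraries were thus not more alike than others. Centring holds such correlations near 0 on average, so this check cannot settle whether the numbers pair the libraries. The replicate block left 0 of all genes called against 2 without it, with a member median of 0.58; without control replicate 1 the block gave Fosb -0.26, Jun -0.10 and Junb -0.12. TPM carries no depth, so the precision of low members such as Fosl1 and Fosl2 is unknown.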
